A study of Homo sapiens with 12 samples.

Results

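A set of 10 genes that respond to Wnt signalling or mark intestinal stem cells, namely AXIN2, LGR5, NKD1, RNF43, ZNRF3, LEF1, TCF7, NOTUM, SP5 and EPHB2, was followed in clones of a colorectal cancer cell line. They were taken by gene symbol, with every array probe that carried the symbol and no selection on signal, although the genes themselves were chosen with earlier results of these data known. This gave 10 of 36337 gene names and 16 of 50599 probes on the array. Where a gene had several probes, the probe with the highest mean signal over the 12 arrays is called its main probe.

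The cells were Colo320DM, an established human colorectal cancer line. Of the clones, 3 carried the pcDNA6.2-GW/EmGFP-miR-neg plasmid (control clones) and 3 a plasmid encoding an artificial microRNA against TET1, an enzyme that oxidises 5-methylcytosine (TET1 knockdown clones). From every clone 1 mock-treated culture and 1 culture kept for 72 h in 1 µM 5-aza-dC were measured. The drug 5-aza-dC blocks DNA methyltransferases, and it was renewed daily with the medium. All clones had been selected with G418. As the study describes them, knockdown clones 1 and 2 carried one artificial microRNA (miTET1-1) and clone 3 carried the other (miTET1-2), which the labels used here do not repeat. Each sample is 1 clone, and clone 3 alone carried its vector, so clone and vector cannot be told apart there. RNA was measured on 12 one-colour arrays, 3 in each of the 4 groups.

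Wnt ligands stabilise beta-catenin, which enters the nucleus and activates genes together with transcription factors of the TCF/LEF family. Many of the activated genes encode inhibitors of the same pathway, so that their RNA is used as a readout of it. In the intestine the pathway maintains the stem cells at the crypt base, and in most colorectal cancers it is active without ligand. NOTUM is a secreted enzyme that inactivates Wnt ligands, RNF43 and ZNRF3 are membrane ubiquitin ligases that remove Frizzled receptors, and AXIN2 and NKD1 act inside the cell as inhibitors. LEF1 and TCF7 are TCF/LEF factors, and SP5 is a zinc finger repressor. LGR5 is an R-spondin receptor that marks the stem cells, and EPHB2 is an ephrin receptor that positions cells along the crypt.

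The gene whose signal differed most between mock and treated arrays was SP5, and its promoter is shown for that reason. The 250 bases before its start lie at chr2:170715087-170715336 on the plus strand (GRCh38.p14, from RefSeq). Capitals mark matches to CTTTGAA or CTTTGAT, letters bound by TCF/LEF factors, on either strand.
SP5 promoter: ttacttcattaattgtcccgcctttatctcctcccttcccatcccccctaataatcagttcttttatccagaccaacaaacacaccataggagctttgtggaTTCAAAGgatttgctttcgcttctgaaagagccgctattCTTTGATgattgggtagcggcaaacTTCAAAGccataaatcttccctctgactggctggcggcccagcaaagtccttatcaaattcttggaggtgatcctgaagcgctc
The matches, 3 in all, begin 148, 109 and 84 bases before the start. Among all 35116 promoters of 300 bases in the table, 6.86% held at least 1 match and 0.0256% held 3 or more. Promoters were held for 5 of the 10 genes with 8 starts between them, and those of EPHB2, LEF1, TCF7 and RNF43 held 0 matches. A CG dinucleotide, the site of DNA methylation, occurred 17 times in the 300 bases of SP5, which run 50 bases past the start, with 6 in the printed part and 11 after the start, against a median of 14 over all promoters. The counts were 48 and 49 at the starts of EPHB2, 3 and 25 at those of TCF7, 9 at that of LEF1, and 0 and 5 at those of RNF43. Such matches describe letters and not binding, and methylation was not analysed here.

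The array probes are 60 bases long, and the accessions of all 10 genes carried the same symbol in RefSeq. The sequences of 3 of these probes are shown with their positions. LGR5 had a single probe, at chr12:71978325-71978384 on the plus strand of hg19. The second probe of AXIN2 lies at chr17:63554388-63554447 on the minus strand, 28999 bases upstream along the gene from its main probe. The second probe of TCF7 lies at chr5:133478508-133478567 on the plus strand.
LGR5: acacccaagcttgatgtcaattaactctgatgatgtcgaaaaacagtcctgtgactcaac
AXIN2: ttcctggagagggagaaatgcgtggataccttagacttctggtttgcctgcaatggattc
TCF7: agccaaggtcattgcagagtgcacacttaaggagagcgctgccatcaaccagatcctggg
Both probes of NOTUM shared 49 of their bases, so they were not independent measurements. The probes of ZNRF3 were 3249 bases apart. Which exon or UTR a probe falls in was not analysed here.

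Signals are given as the log2 signal of the probe minus the 75th percentile of its array, so 0 is the level of that percentile and values can be negative. Between 45.7% and 52.9% of the probes on an array were well above background. The arrays lay on 2 slides, and only control clone 3 and TET1 knockdown clones 1 and 3 had both of their arrays on 1 slide. All treated control arrays were on slide 2 and all mock knockdown arrays were on slide 1. The mean TET1 signal of the mock knockdown clones was below that of the mock controls on all 3 TET1 probes. The log2 differences were -1.35, -1.08 and -0.93, and none passed the limma test (adjusted p 0.243 to 0.395). Unadjusted, the limma p was 0.0015, 0.022 and 0.0023. The study made its own check of TET1 in these clones by RT-qPCR, which is not part of these arrays. On one TET1 probe the treated knockdown clone 2 read 4.31, within the treated control range of 4.06 to 4.42, and on the other probes it read 1.02 and -1.74, below all treated controls. Among 10 colon epithelium markers, CDX2, KRT8, KRT18 and CDX1 were well above background on all 12 arrays, while CDH1 was not well above background on any and VIL1 on only 1.

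**Figure D1:**
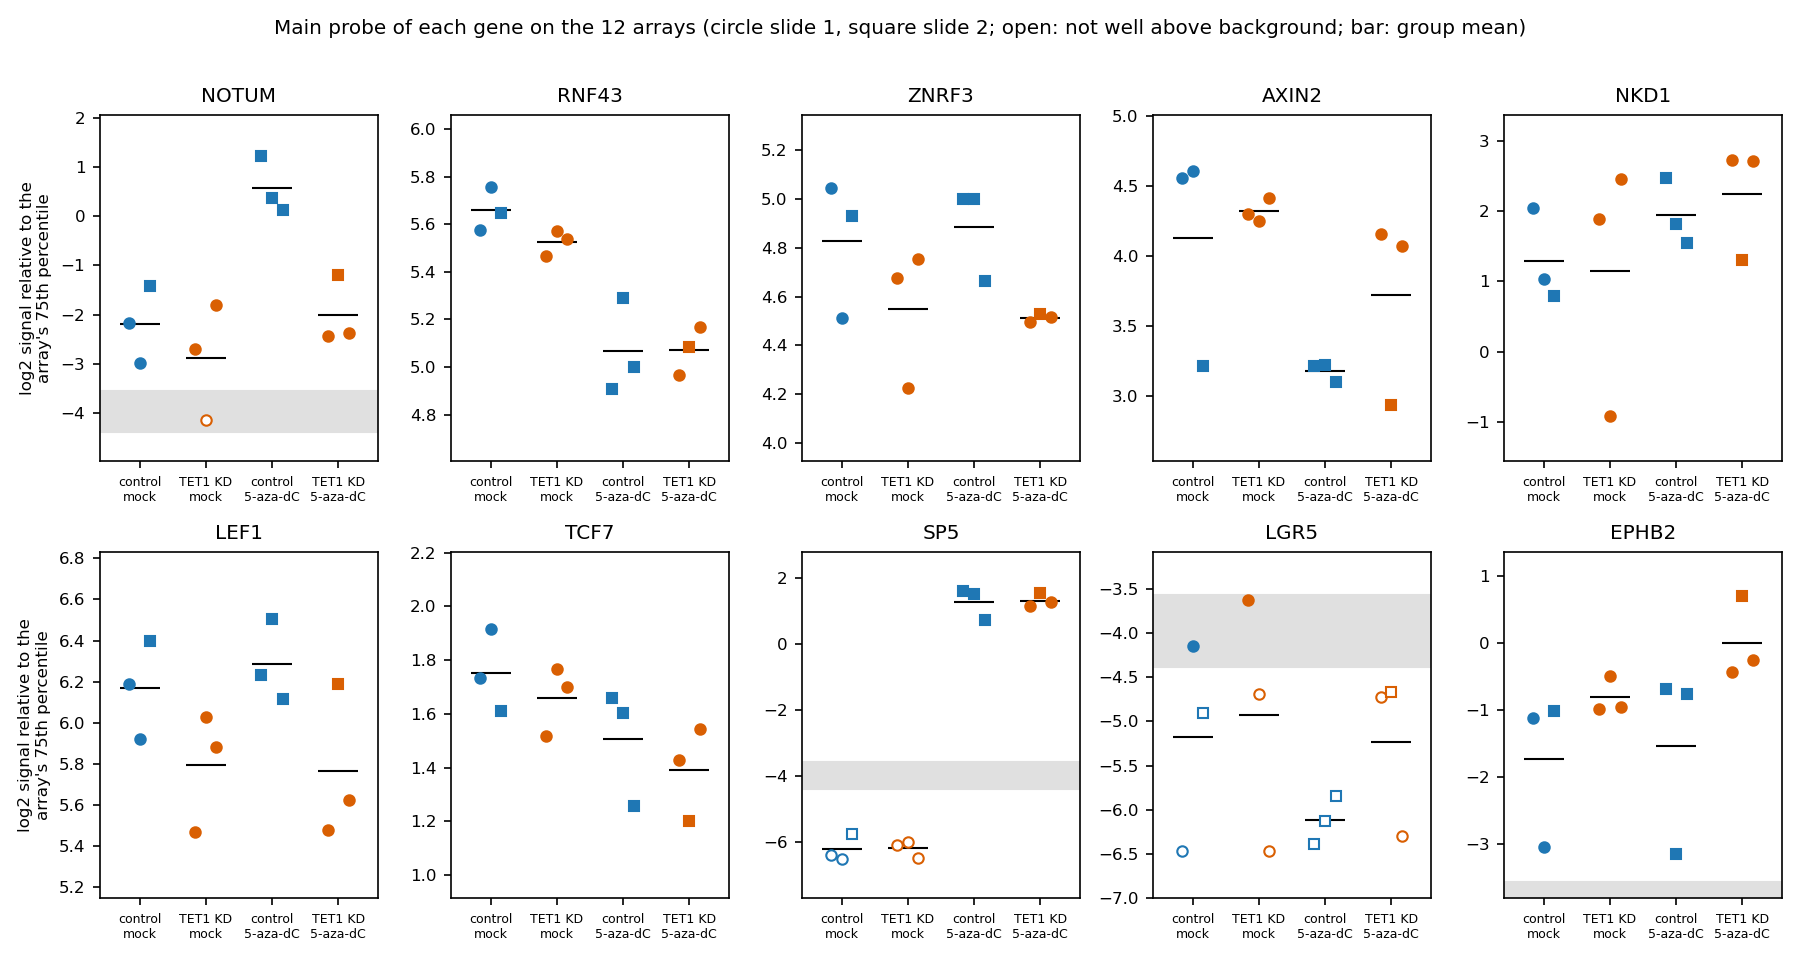
Log2 signal of the main probe of each of the 10 genes on each array, relative to the array's 75th percentile, in the 4 groups of 3 clones (blue control, orange TET1 knockdown). Circles are slide 1 and squares slide 2, open symbols were not well above background, bars are group means, and the grey band is the range over arrays of the lowest signal well above background. SP5 was open on all 6 mock arrays and filled on all 6 treated arrays.

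Between TET1 knockdown and control clones, none of the 10 genes passed the test. After mock treatment 8 main probes were tested and 0 were called (limma, adjusted p 0.546 to 0.948), against a background of 0.137% of all 24753 probes tested. At an unadjusted p under 0.05 the count was also 0 of 8, against 2763 of all probes. After 5-aza-dC 0 of 9 were called (adjusted p 0.113 to 0.987), against 0.096% of 24998 probes. At an unadjusted p under 0.05 the count was 1 of 9, which was NOTUM, against 4813 of all probes. The median difference over the members was -0.14 in mock and 0.01 in treated clones, beside 0.04 and -0.01 over all probes tested. Both comparisons with 5-aza-dC described next use the same arrays as these, so the 4 sets of values are not independent.

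After 5-aza-dC, SP5 and NOTUM rose in the control clones and SP5 rose in the TET1 knockdown clones. In the control clones 2 of 9 tested genes were called, where 5.22% of 24641 probes were called and 3.85% were called higher. In the knockdown clones 1 of 9 was called, where 2.04% of 25390 probes were called and 2.03% were called higher. Over all 6 clones 3 of 9 were called, with SP5 and NOTUM higher and RNF43 lower, where 13.2% of 27287 probes were called, 7.29% higher and 5.95% lower. SP5, which is in each of these counts, could enter the tests only through its treated arrays. The members' median change was 0.11 in control clones, -0.03 in knockdown clones and 0.04 over all clones, and the median of all probes was -0.02, -0.09 and -0.05. The difference in response between the clone types was tested as an interaction, and 0 of 9 members passed (limma, adjusted p 1.00 for each after rounding), against 0.0366% of all probes. None of the 9 had an unadjusted p under 0.05 for the interaction, against 673 of all probes.

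**Figure D2:**
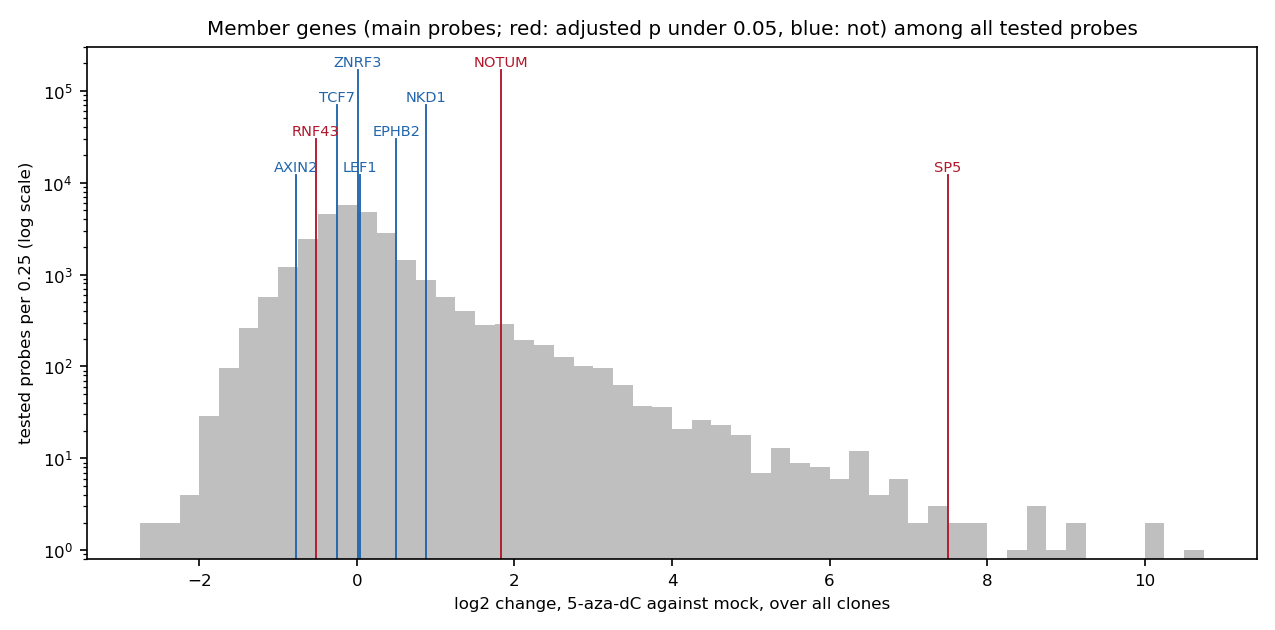
Histogram of the log2 change with 5-aza-dC over all clones for the 27287 tested probes (number of probes on a log scale), with the 9 tested member genes drawn as vertical lines, red where the limma adjusted p was under 0.05. SP5 stood at a fitted 7.50 against mock signals at the floor, NOTUM at 1.83 and RNF43 at -0.52, and the other 6 genes lay between -0.78 and 0.88.

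SP5 was not well above background on any mock array and was well above it on every treated array. In the mock control clones 1, 2 and 3 its log2 signal was -6.39, -6.52 and -5.74, and in the mock knockdown clones it was -6.07, -6.00 and -6.47. After 5-aza-dC the control clones read 1.62, 1.52 and 0.72, and the knockdown clones read 1.15, 1.55 and 1.27. The mock and treated ranges were separated in both clone types, and the treated ranges of the clone types overlapped. Because the mock signals lay at the floor, the change is a bound, at least 42.7-fold higher in the control clones and at least 38.6-fold higher in the knockdown clones. The limma adjusted p was 0.00035 and 0.000119, and over all clones 2.51e-08. SP5 passed the filter on dim probes through its treated arrays alone, so it could enter these tests only by being bright after treatment. The fitted log2 change over all clones was 7.50, a value that rests on mock signals at the floor, and it was 3.81 with normexp background correction, which raises the signal of dim spots. The fitted difference between treated knockdown and control clones was 0.04 (95% interval -0.67 to 0.74, limma adjusted p 0.951). In the 3 clones with both arrays on 1 slide, no mock array was well above background and the treated arrays read 0.72, 1.15 and 1.27. With slide and clone both in the model, which leaves control clone 3 to carry the control value, the adjusted p in control clones was 0.0701.

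NOTUM, the secreted inhibitor, was low in all mock clones and rose in the treated control clones. The mock control clones 1, 2 and 3 read -2.17, -2.99 and -1.42, and the mock knockdown clones read -2.71, -4.14 and -1.81, of which clone 2 was not well above background. After 5-aza-dC the control clones read 1.22, 0.38 and 0.13, all above every mock value. The treated knockdown clones read -2.44, -1.20 and -2.37, within or near the range of their mock arrays. In the control clones the mean rose from -2.19 ± 0.78 (SD, n = 3) to 0.58 ± 0.57 (SD, n = 3), a log2 change of 2.77 with an SE of 0.47 (limma adjusted p 0.0262). In the knockdown clones the change was 0.89 with an SE of 0.64 (limma adjusted p 0.708), being 0.27 and -0.55 in clones 1 and 3, and 2.94 in clone 2. The interaction was -1.88 (95% interval -3.81 to 0.04) and did not pass, so a smaller response in the knockdown clones was not shown. Between treated knockdown and control clones the difference was -2.58 with an SE of 0.44 (limma adjusted p 0.113), and the groups did not overlap. Without the arrays of knockdown clone 2 that difference was -2.98 with an adjusted p of 0.00551, in a fit in which every knockdown array is on slide 1 and every control array on slide 2.

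The NOTUM main probe read higher on slide 2 than on slide 1 by 1.16 among mock control arrays and by 1.20 among treated knockdown arrays, and the second probe by 0.08 and 1.27. In each of these groups slide 2 held a single clone, so slide and clone cannot be told apart in these differences, nor in those given for other genes. In the clones with both arrays on 1 slide the change was 1.55, 0.27 and -0.55. With slide in the model the change in control clones was 2.00 and was no longer called (limma adjusted p 0.157), and without control clone 1 or 2 it was 2.46 and 2.47 (adjusted p 0.312 and 0.370). Over all clones the change was 1.83 (limma adjusted p 0.022), and with the clone as a block the adjusted p was 0.0512. The second probe rose by 2.19 in the control clones (limma adjusted p 0.0252). In control clones 1 and 2 every mock array was on slide 1 and every treated array on slide 2, so slide and treatment cannot be told apart there.

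**Figure D3:**
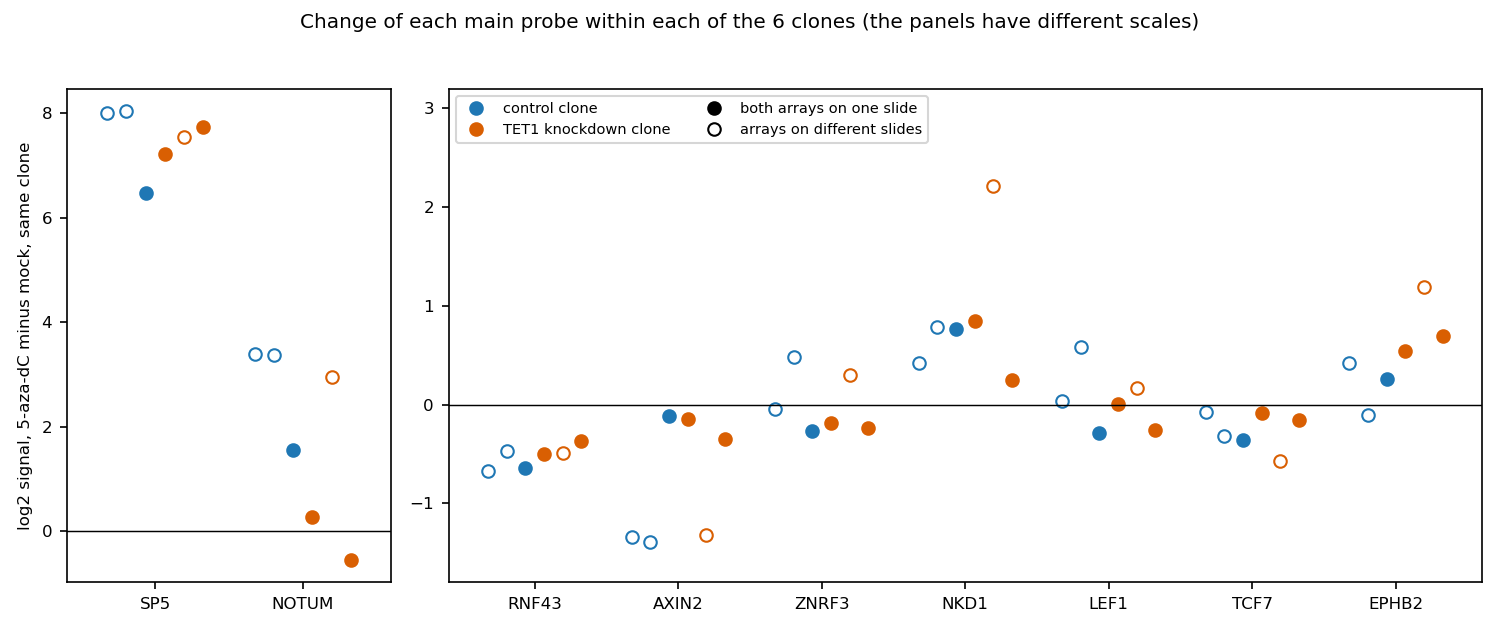
Log2 signal after 5-aza-dC minus that after mock treatment in each of the 6 clones for the 9 tested genes (main probes), with blue for control and orange for TET1 knockdown clones. Filled symbols have both arrays on 1 slide and open symbols have them on different slides. SP5 lay far above 0 in every clone, with sizes that rest on mock signals at the floor, and RNF43 fell in every clone by 0.37 to 0.67, while the open and filled symbols of AXIN2 were apart.

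RNF43, which removes Wnt receptors from the membrane, fell modestly with 5-aza-dC in every clone. The mock control clones read 5.58, 5.76 and 5.65, and the treated ones read 4.91, 5.29 and 5.00. The mock knockdown clones read 5.47, 5.57 and 5.54, and the treated ones read 4.97, 5.08 and 5.17. Mock and treated values did not overlap in either clone type. Over all clones the log2 change was -0.52 with an SE of 0.11, which left 69.6% of the mock signal (limma adjusted p 0.0142). The change was lower in 6 of 6 clones, and the 3 clones with both arrays on 1 slide ranged from -0.64 to -0.37. Slide 2 differed from slide 1 by -0.02 in mock control and 0.02 in treated knockdown arrays. Within one clone type it did not pass, with -0.59 in control clones (limma adjusted p 0.103) and -0.45 in knockdown clones (limma adjusted p 0.525). Leaving out control clone 1, or knockdown clone 1 or 3, ended the call over all clones (adjusted p 0.0737, 0.0603 and 0.0533), while the change was -0.50, -0.51 and -0.54. With both the clone and the slide in the model it was -0.53 (adjusted p 0.0592), and in the 3 clones on 1 slide alone -0.50 (adjusted p 0.0936).

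ZNRF3, the paralogue of RNF43, was called lower on its second probe and not on its main probe. The main probe lay between 4.23 and 5.04 on all 12 arrays and changed by 0.01 over all clones (95% interval -0.31 to 0.33, limma adjusted p 0.969), a direction that turned to -0.23 when arrays were centred on their median. In the 3 clones with both arrays on 1 slide the main probe changed by -0.27 to -0.18. The second probe fell in 6 of 6 clones, by 0.22 to 1.26, and was called over all clones at -0.75 with an SE of 0.19 (limma adjusted p 0.0283). On that probe slide 2 read 0.72 and 0.76 below slide 1 within a group, and the clones on 1 slide fell by 0.22 to 0.57.

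AXIN2, a scaffold of the beta-catenin destruction complex, read lower after 5-aza-dC in 6 of 6 clones on both probes, and the main probe followed the slide. On the main probe the mock control clones read 4.56, 4.61 and 3.21, and the mock knockdown clones read 4.30, 4.25 and 4.42. After 5-aza-dC the control clones read 3.21, 3.22 and 3.09, and the knockdown clones read 4.15, 2.93 and 4.07. All 5 arrays of slide 2 lay between 2.93 and 3.22, and all 7 arrays of slide 1 between 4.07 and 4.61. The clones on 1 slide changed by -0.35 to -0.12, and the others by -1.39 to -1.32. Over all clones the change was -0.78 with an SE of 0.28 (limma adjusted p 0.0925). Without control clone 3, whose arrays were both on slide 2, it was -0.98 (limma adjusted p 0.0295). The second probe changed by -0.83 with an SE of 0.21 and was called (limma adjusted p 0.0279), and its clones on 1 slide fell by 0.26 to 0.97. NKD1, which restrains Dishevelled, read higher after 5-aza-dC in 6 of 6 clones, by 0.25 to 2.22, and the mean change of 0.88 with an SE of 0.55 did not pass (limma adjusted p 0.292). Its mock knockdown clones were spread from -0.92 in clone 2 to 2.46 in clone 3, wider than any other group for this gene.

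**Figure D4:**
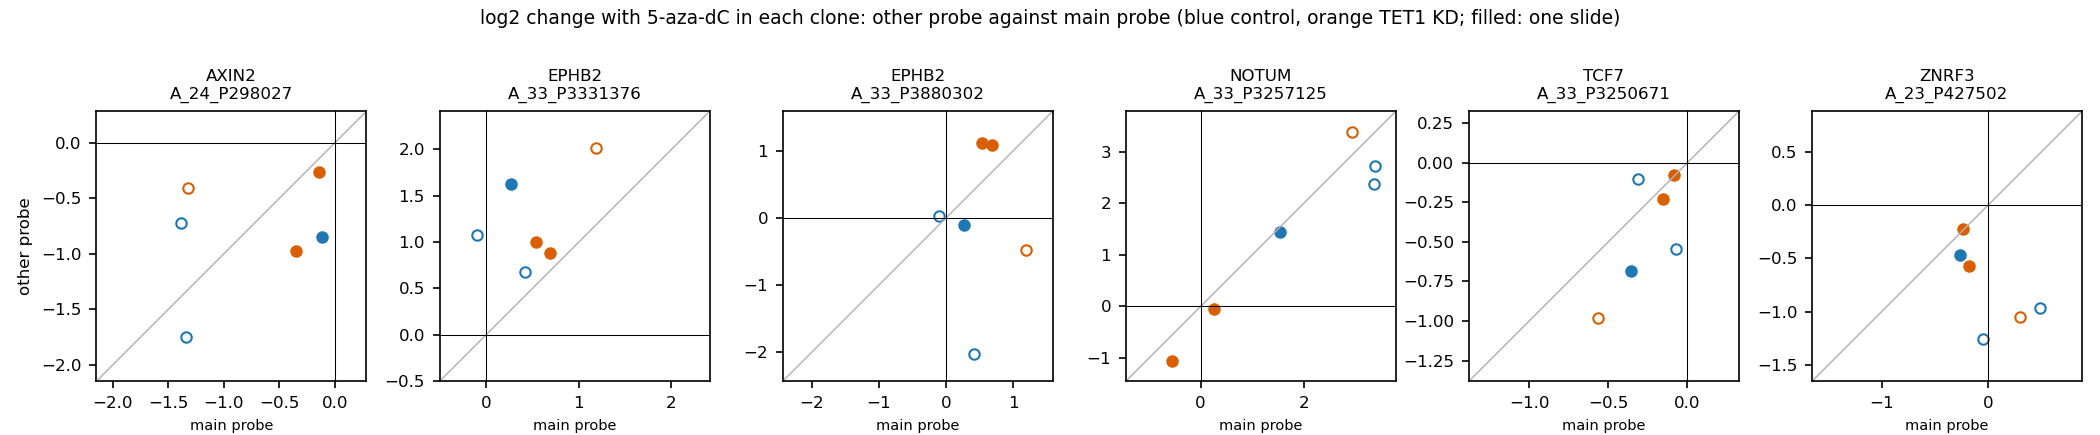
Log2 change with 5-aza-dC in each of the 6 clones on the other probes of AXIN2, EPHB2, NOTUM, TCF7 and ZNRF3 (vertical axis) against the main probe of the same gene (horizontal axis), with the line of equal change in grey and filled symbols for clones with both arrays on 1 slide. The NOTUM probes lay near the line, and all ZNRF3 points lay below 0 on the second probe while 2 of 6 lay above 0 on the main probe.

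Neither of the TCF/LEF factors among the members, LEF1 and TCF7, was called over all clones in the main fit. LEF1 lay between 5.47 and 6.51 on all 12 arrays, and its change over all clones was 0.04 (95% interval -0.34 to 0.42, limma adjusted p 0.88), or -0.20 with arrays centred on their median. In knockdown clones it was lower than in control clones by 0.38 after mock treatment (limma adjusted p 0.555) and by 0.52 after 5-aza-dC (limma adjusted p 0.308). Without the arrays of knockdown clone 2 the treated difference was -0.73 with an adjusted p of 0.0344, again with each clone type on a slide of its own. TCF7 read lower after 5-aza-dC in 6 of 6 clones on both probes, from -0.57 to -0.07 on the main probe and from -0.98 to -0.07 on the second. The change over all clones was -0.26 with an SE of 0.13 on the main probe and -0.44 with an SE of 0.19 on the second, and neither passed (limma adjusted p 0.189 and 0.15).

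LGR5, the stem cell receptor, was at the floor of the array. Its probe was well above background on 2 of 12 arrays, mock control clone 2 at -4.15 and mock knockdown clone 1 at -3.62, and on none of the 6 treated arrays. The other 10 arrays read -6.46 to -4.67. It was not tested, and no fold is given because all groups held arrays at the floor.

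On the main probe of EPHB2 the difference between clone types did not pass the test, and it rested largely on control clone 2, which stood apart. On the main probe the mock control clones read -1.11, -3.04 and -1.01, and the mock knockdown clones read -0.97, -0.48 and -0.94. After 5-aza-dC the control clones read -0.69, -3.14 and -0.75, and the knockdown clones read -0.43, 0.70 and -0.25. The groups did not overlap in either treatment, though clones 1 and 3 of both types were close after mock treatment. The difference was 0.92 with an SE of 0.56 in mock (limma adjusted p 0.546) and 1.53 with an SE of 0.71 in treated clones (limma adjusted p 0.282). Without control clone 2 it was 0.26 and 0.72. On the dimmer probes the mock groups did not overlap either, with differences of 2.41 and 2.15 (limma adjusted p 0.416 and 0.393). Mock control clones 1 and 3 read -2.20 and -3.74 on the former probe, against -1.94 to -1.12 in the knockdown clones. On the latter they read -3.75 and -4.44, against -3.16 to -2.37. On each, 1 mock control array was well above background, so the knockdown arrays carried these probes past the filter. On the probe with the mock difference of 2.41, at chr1:23240664-23240723 of hg19, no treated control array was well above background. All treated knockdown arrays were, at -0.83, -1.60 and -0.49, which is at least 7.38-fold higher (limma adjusted p 0.0959). This probe passed the filter there through the treated knockdown arrays alone, so it could be tested only by being bright in them. Knockdown clone 2, on the same slide as the treated controls, read -1.60 there against -4.24, -5.88 and -3.86. With 5-aza-dC the main probe changed by 0.50 over all clones (95% interval -0.60 to 1.60, limma adjusted p 0.511).

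Other genes of the pathway, grouped in lists, were read on their main probes. Between knockdown and control clones 0 genes were called in any list, in mock or treated clones. Of 30 other Wnt target genes, 21 were tested over all clones after 5-aza-dC, of which 1 was called higher and 2 lower, with a median of -0.07. Over all probes 7.29% were called higher and 5.95% lower, and the counts of this and the following lists are read beside these shares. WIF1, a secreted Wnt inhibitor, rose by 3.29 with an SE of 0.35 (limma adjusted p 0.000165) and in 6 of 6 clones. The receptor TNFRSF19 fell by 1.05 and the transcription factor SOX4 fell by 0.52. In the clones on 1 slide TNFRSF19 changed by -0.77 to -0.18 and SOX4 by -0.46 to -0.007. Of 20 other intestinal stem cell genes, 16 were tested, 1 was called higher (HOPX, by 1.62) and 2 lower (TNFRSF19 again, and RGMB, a BMP co-receptor, at -1.27). The signal of HOPX was higher in 5 of 6 clones. In the clones on 1 slide HOPX changed by -0.21 to 2.42 and RGMB by -0.71 to -0.34.

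Among 31 genes of the beta-catenin destruction and transcription complexes, all were tested, 0 were called higher and 5 lower over all clones, where 5.95% of all probes were called lower. These were APC at -0.83, the corepressor TLE3 at -0.83, the TCF/LEF factor TCF7L2 at -0.81, the ubiquitin ligase component BTRC at -0.49 and the APC partner AMER1 at -0.48. Each fell in 6 of 6 clones, and in the clones on 1 slide APC fell by 0.26 to 0.76 and TCF7L2 by 0.15 to 0.79. The list's median was -0.09, beside -0.05 over all probes. Of 41 genes for Wnt ligands, receptors and co-receptors, 26 were tested and 1 was called, FZD9 at 1.12. WNT5A, a ligand, fell by 1.14 in the control clones (limma adjusted p 0.00964).

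Some markers of colon epithelium and of other cell types changed with the treatment too. Of 10 colon epithelium markers, 8 were tested over all clones, with 5 changes above 0, 3 below and a median of 0.12. Of these, 2 were called higher and 0 lower. EPCAM rose by 3.76. It was well above background on only 2 mock arrays of each clone type, so its size rests partly on signals at the floor. KRT19, not well above background on any mock array, was at least 6.02-fold higher in treated control clones and at least 5.65-fold higher in treated knockdown clones. It passed the filter through its treated arrays alone. Of the leukocyte markers, CSF1R rose by 3.63 and CD68 by 1.53 over all clones (limma adjusted p 0.0121 and 0.0301). CSF1R was well above background on only 1 mock control and 2 mock knockdown arrays, so its size rests partly on signals at the floor. CD68 was well above background on only 1 mock array of each clone type, so it needed treated arrays to pass the filter. The lowest change among the tested leukocyte markers over all clones was -0.87, which was not called. PTPRC and CD14 were well above background on all 12 arrays, while MS4A1 and NCAM1 were not on any. Of the stromal markers COL1A1 rose and CDH5 and VWF fell (3 of 6 tested), and the list's summed linear signal, in units of the array's 75th percentile, was 0.631 to 4.17 on mock and 1.64 to 4.32 on treated arrays. In the clones on 1 slide COL1A1 changed by 1.05 to 2.45, CDH5 by -0.91 to -0.26 and VWF by -1.19 to 0.002. COL1A2 and PECAM1 were not well above background on any array. The cells were a cultured line, and the part of other cell types in the members' values was not tested.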

How the data were processed

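The deposited scanner files give the background-corrected intensity of every spot, obtained by the authors with Agilent Feature Extraction (10.7.3.1 per the file headers). Per the methods, later steps used GeneSpring, whose normalization is not given in the sources used here. Control spots and spots marked as outliers (268 to 395 per array) were left out, log2 signals were averaged per probe and the array's 75th percentile was subtracted. A probe was tested if at least 50% of its spots were well above background on at least 3 arrays of the fit. Groups were compared with limma 3.58.1 in R 4.3.3 (two-sided, Benjamini-Hochberg over all probes tested, threshold 0.05), with only the arrays of the groups compared, or all 12 arrays for the comparison over all clones and the interaction. The scripts were tested on simulated data.

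For a bound on a fold, each array of the dimmer group was given the lowest signal well above background on it, or the probe's value where that was higher, and the mean over these arrays was set against the brighter group's mean. Clone numbers in the labels pair mock and treated arrays of the same clone. The deviations of paired arrays from their group means correlated at 0.218 to 0.365 in control and 0.427 to 0.614 in knockdown clones. The main fits did not use this pairing and treated the mock and treated arrays of a clone as independent. The clone entered as a block only in the alternatives. Nothing says that clones were cultured more than once, so p-values measure the spread between these clones. With 3 arrays per group, the number of arrays limits the precision. The members and lists were chosen with earlier results of these data known. Named genes were the members with all their probes, TET1, and at most 5 called genes per list and comparison with the largest change. Gene symbols are those of the files. The results of 1 marker, and the counts and sums of its list, are not reported here. Alternatives were other background correction and scaling, other filters on dim probes, the deposited series table, slide and clone as blocks, the methods' t-test, all 12 arrays, the mean over a gene's probes and leaving out each clone.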

Additional observations from a re-analysis of the deposited data

How the results depend on the processing

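The alternatives gave 924 log2 values for member genes, of which 807 kept their direction and their side of the threshold, 88 changed sign, 20 lost a call and 9 gained one. No value that changed sign was called. SP5 kept its call over all clones under each of the 16 alternatives that tested it (adjusted p 8.71e-09 to 0.00387). Except with no filter on dim probes, it could enter these fits only through its treated arrays. In control clones SP5 lost its call with the replicate block and slide (6.46). NOTUM over all clones lost its call in 8 of 17 alternatives and RNF43 in 5 of 17. The cause of these changes was not tested. Without knockdown clone 2, NOTUM, LEF1 and AXIN2 were called between treated knockdown and control clones, in a fit with each clone type on a slide of its own. With arrays centred on their median, which moved the median change of all probes to -0.23 in control, -0.35 in knockdown and -0.29 in all clones, AXIN2 (-1.02) and TCF7 (-0.50) were called over all clones, and with all 12 arrays RNF43 was called in control clones (adjusted p 0.0481). AXIN2 was also called without control clone 3, in control clones (-1.37, adjusted p 0.0186) and over all clones (-0.98, adjusted p 0.0295). In those fits every mock array lay on slide 1 and every treated control array on slide 2. With the mean over its probes AXIN2 was called over all clones (-0.80, adjusted p 0.0383). The share of called probes that were higher was 73.7% in control clones and 55.1% in all clones, against 61.7% and 45.0% with quantile normalization and 35.0% and 19.9% with the array median. Signal over background limits LGR5, SP5 in mock cells and the dimmer EPHB2 probes.

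With all 12 arrays and slide as a block the sign changed for the mock knockdown against control in AXIN2 (-0.23), for the treated knockdown against control in AXIN2 (-0.31) and NKD1 (-0.42), for the treatment in control clones in EPHB2 (-0.51), LEF1 (-0.21) and ZNRF3 (-0.00037). With arrays centred on their median the sign changed for the treated knockdown against control in RNF43 (-0.031) and SP5 (-0.00091), for the treatment in control clones in EPHB2 (-0.022), LEF1 (-0.10) and ZNRF3 (-0.16), for the treatment in all clones in LEF1 (-0.20) and ZNRF3 (-0.23). In the 3 clones with both arrays on 1 slide, with the replicate block the sign changed for the treatment in all clones in LEF1 (-0.18) and ZNRF3 (-0.23). With the mean over a gene's probes the sign changed for the mock knockdown against control in AXIN2 (-0.14), for the treatment in control clones in ZNRF3 (-0.42), for the treatment in all clones in ZNRF3 (-0.37), for the interaction in ZNRF3 (0.094). With normexp and quantile normalization the sign changed for the treatment in control clones in LEF1 (-0.048), for the treatment in knockdown clones in LEF1 (0.020) and ZNRF3 (0.050), for the treatment in all clones in LEF1 (-0.014), for the interaction in LEF1 (0.068), TCF7 (0.040) and ZNRF3 (0.039). With outlier spots kept the sign changed for the interaction in SP5 (0.00030). With quantile normalization of the processed signal the sign changed for the treatment in control clones in LEF1 (-0.058) and ZNRF3 (-0.034), for the treatment in knockdown clones in LEF1 (0.015) and ZNRF3 (0.041), for the treatment in all clones in LEF1 (-0.021), for the interaction in LEF1 (0.073), SP5 (0.12), TCF7 (0.044) and ZNRF3 (0.075). With the replicate block and slide the sign changed for the mock knockdown against control in AXIN2 (-0.31), for the treated knockdown against control in AXIN2 (-0.29), NKD1 (-0.52) and RNF43 (-0.21), for the treatment in control clones in LEF1 (-0.28) and ZNRF3 (-0.27), for the treatment in knockdown clones in NOTUM (-0.14), for the treatment in all clones in LEF1 (-0.18) and ZNRF3 (-0.24), for the interaction in AXIN2 (-0.041), LEF1 (0.0052), SP5 (0.27) and ZNRF3 (0.071). With slide as a block the sign changed for the mock knockdown against control in AXIN2 (-0.26), for the treated knockdown against control in AXIN2 (-0.24) and NKD1 (-0.65), for the treatment in control clones in EPHB2 (-0.51), LEF1 (-0.11) and ZNRF3 (-0.043), for the treatment in all clones in EPHB2 (-0.028), LEF1 (-0.20) and ZNRF3 (-0.034), for the interaction in AXIN2 (-0.079), LEF1 (0.021) and SP5 (0.17). Leaving out each clone in turn, signs changed for the mock knockdown against control AXIN2 (-0.26 to 0.44) and NKD1 (-0.80 to 0.88), for the treated knockdown against control RNF43 (-0.073 to 0.12) and SP5 (-0.25 to 0.20), for the treatment in control clones LEF1 (-0.12 to 0.31) and ZNRF3 (-0.16 to 0.22), for the treatment in knockdown clones LEF1 (-0.12 to 0.087), NOTUM (-0.14 to 1.60) and ZNRF3 (-0.21 to 0.061), for the treatment in all clones LEF1 (-0.074 to 0.14) and ZNRF3 (-0.097 to 0.091), for the interaction LEF1 (-0.34 to 0.093), NKD1 (-0.11 to 0.87), SP5 (-0.53 to 0.26), TCF7 (-0.11 to 0.13) and ZNRF3 (-0.27 to 0.12).

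The clones on 1 slide alone were added after seeing the data. For the mock knockdown against control, the number of probes called went from 34 to 5 with probes bright on every array, 20 with the replicate block, 0 with the replicate block and slide, 87 with all 12 arrays, 127 with all 12 arrays and slide, 4 by the methods' t-test and 8 to 94 when leaving out a clone. For the treated knockdown against control, the number of probes called went from 24 to 10 with normexp, 39 with the array median, 12 with no filter, 0 with probes bright on every array, 61 with slide, 7 with the replicate block, 4 with the replicate block and slide, 181 with all 12 arrays, 3 by the methods' t-test and 0 to 7730 when leaving out a clone. For the treated knockdown against control, the number of members called went from 0 to 0 to 3 when leaving out a clone. For the treatment in control clones, the number of probes called went from 1286 to 2539 with the array median, 427 with probes bright on every array, 525 with slide, 0 with the replicate block and slide, 358 by the methods' t-test and 0 to 5346 when leaving out a clone. For the treatment in control clones, the number of members called went from 2 to 1 with probes bright on every array, 1 with slide, 0 with the replicate block and slide, 1 with all 12 arrays and slide, 1 by the methods' t-test and 0 to 2 when leaving out a clone. For the treatment in knockdown clones, the number of probes called went from 519 to 267 with normexp, 50 with probes bright on every array, 211 by the methods' t-test and 0 to 40 when leaving out a clone. For the treatment in knockdown clones, the number of members called went from 1 to 0 with probes bright on every array and 0 to 0 when leaving out a clone. The member called there, SP5, was not tested in these fits, because too few of its arrays were well above background. It kept its call in all 12 alternatives that tested it in knockdown clones. In control clones SP5 was likewise untested with probes bright on every array or with a control clone left out. For the treatment in all clones, the number of probes called went from 3612 to 8549 with the array median, 1994 with probes bright on every array, 1673 with the replicate block and slide, 884 in the clones on 1 slide with the replicate block and 1412 to 4874 when leaving out a clone. For the treatment in all clones, the number of members called went from 3 to 5 with the array median, 1 with probes bright on every array, 1 with the replicate block and slide, 1 in the clones on 1 slide with the replicate block and 1 to 4 when leaving out a clone. For the interaction, the number of probes called went from 10 to 4 with no filter, 4 with probes bright on every array, 2 with the replicate block, 5 with the replicate block and slide and 1 to 9 when leaving out a clone. The counts of 7730 without knockdown clone 2, between treated knockdown and control clones, and of 5346 without control clone 3, for the treatment in control clones, come from fits in which each group lies on a slide of its own. Between clone types only the number is shared, so the block there pairs clones by number alone.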
